A study of Mus musculus with 6 samples.

Results

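Igfbp1 to Igfbp7, which encode the insulin-like growth factor (IGF) binding proteins, were examined together with Igfals, Igf1 and Igf1r in mouse liver. These 10 genes were taken by symbol, with every probe set that carries only that symbol, which gave 26 of the 34945 single-symbol probe sets on the array. Igfbp1 had been singled out because an earlier analysis of the same arrays found it lower in one genotype, so its difference is given as a description. The arrays hold total liver RNA of male mice of mixed background, 8 weeks old and fasted for 24 h. There were 3 arrays of Mig-6 f/f mice and 3 of Mig-6 d/d mice. Errfi1 is the gene that encodes Mig-6, which dampens signalling by epidermal growth factor receptors. The labels do not name the deleting recombinase or its promoter, nor whether each array is a separate animal, so the errors below measure the spread between these arrays, which may be technical.

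IGF1 is made mainly by hepatocytes under growth hormone and acts through the receptor IGF1R. In blood most of it is bound by IGF binding proteins, of which IGFBP3 and IGFBP5 form a larger complex with the acid-labile subunit, the product of Igfals. IGFBP1 is secreted by hepatocytes, and its gene is a textbook example of one switched on in fasting through FOXO1 and switched off by insulin.

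Errfi1 read 5371, 5424 and 5686 in the f/f livers and 68.0, 61.8 and 59.6 in the d/d livers, so all 6 arrays fitted their labels. The median deposited intensity of the arrays lay between 55.6 and 65.4. Replicate 3 of f/f was unlike the other arrays. Its control probe sets for 18S ribosomal RNA averaged 3807 against at most 455.2 on the other 5 arrays, and its mean correlation with them was 0.962 where theirs were 0.978 to 0.981.

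Igfbp1 and Igfbp3 lie next to each other on chromosome 11, and Igfbp2 and Igfbp5 are neighbours on chromosome 1, with no other protein-coding gene between them in GRCm38.p6. The 250 bases before the transcription start are printed for Igfbp1, for its neighbour Igfbp3, and for G6pc, a gene suppressed by insulin that also fell in these livers. They come from RefSeq (GRCm38.p6) and run 5′ to 3′ on the strand of the gene: chr11:7197537-7197786 (plus) for Igfbp1, chr11:7213924-7214173 (minus) for Igfbp3 and chr11:101367466-101367715 (plus) for G6pc. Capitals mark CAAAACA, the core of the insulin response element bound by FOXO proteins, and GTTAAT, an HNF1 half-site, each on either strand. The marked stretches do not overlap.
Igfbp1: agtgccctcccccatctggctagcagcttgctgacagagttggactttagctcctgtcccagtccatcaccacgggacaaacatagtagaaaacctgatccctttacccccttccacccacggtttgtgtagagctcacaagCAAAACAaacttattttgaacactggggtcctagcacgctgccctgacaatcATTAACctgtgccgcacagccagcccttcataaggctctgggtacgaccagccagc
Igfbp3: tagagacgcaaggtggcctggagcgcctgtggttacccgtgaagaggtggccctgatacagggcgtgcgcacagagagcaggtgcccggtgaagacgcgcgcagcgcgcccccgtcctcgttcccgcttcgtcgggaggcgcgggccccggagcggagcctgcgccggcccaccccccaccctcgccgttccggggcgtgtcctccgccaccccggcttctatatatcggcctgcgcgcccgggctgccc
G6pc: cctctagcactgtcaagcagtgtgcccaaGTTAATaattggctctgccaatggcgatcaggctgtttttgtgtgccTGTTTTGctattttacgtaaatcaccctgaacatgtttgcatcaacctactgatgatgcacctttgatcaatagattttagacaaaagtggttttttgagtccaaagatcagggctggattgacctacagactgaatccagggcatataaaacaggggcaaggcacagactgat
In the Igfbp1 window CAAAACA stands at bases 108 to 102 before the start, and a reversed GTTAAT stands at bases 56 to 51. In the G6pc window the matches stand at bases 174 to 168 and 221 to 216. The Igfbp3 window held neither. Among the 13 windows of the 10 genes, CAAAACA and GTTAAT were each found for Igfbp1 only, and the FOXO consensus TGTTTAC for Igfals only. Over all 32851 windows of this length, 5.56% held CAAAACA, 6.43% GTTAAT and 3.17% TGTTTAC on either strand. These 3 were picked from 12 motifs after their matches were seen, and a match is no proof of a site. Of the motifs not picked, the short FOXO core TGTTT was found for 5 of the 10 genes and in 46.4% of all windows. The 5 were Igf1, Igfals, Igfbp1, Igfbp2 and Igfbp6.

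Igfbp1 was read by a single probe set. The deposited intensities were 4816, 4893 and 3245 in the f/f livers and 1019, 882 and 957 in the d/d livers. The groups did not overlap, as for 6.78% of all tested genes in this direction, and the lowest f/f array read 3.18 times the highest d/d array. Means were 4318 ± 930 and 953 ± 68.6 (SD, n = 3), so that the d/d mean was 22.1% of the f/f mean. The spread was wider among f/f arrays, with an SD of 21.5% of the mean against 7.20% among d/d arrays, and f/f replicate 3 read 66.8% of the mean of the other two. After quantile normalization, and as log2(intensity + 16), the d/d mean less the f/f mean was -2.12 ± 0.17 (standard error of limma, 95% interval -2.52 to -1.73), or 4.36 times lower. Without f/f replicate 3 it was -2.31. Fewer cells that make a transcript and less of it per cell cannot be told apart in whole liver RNA.

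**Figure D1:**
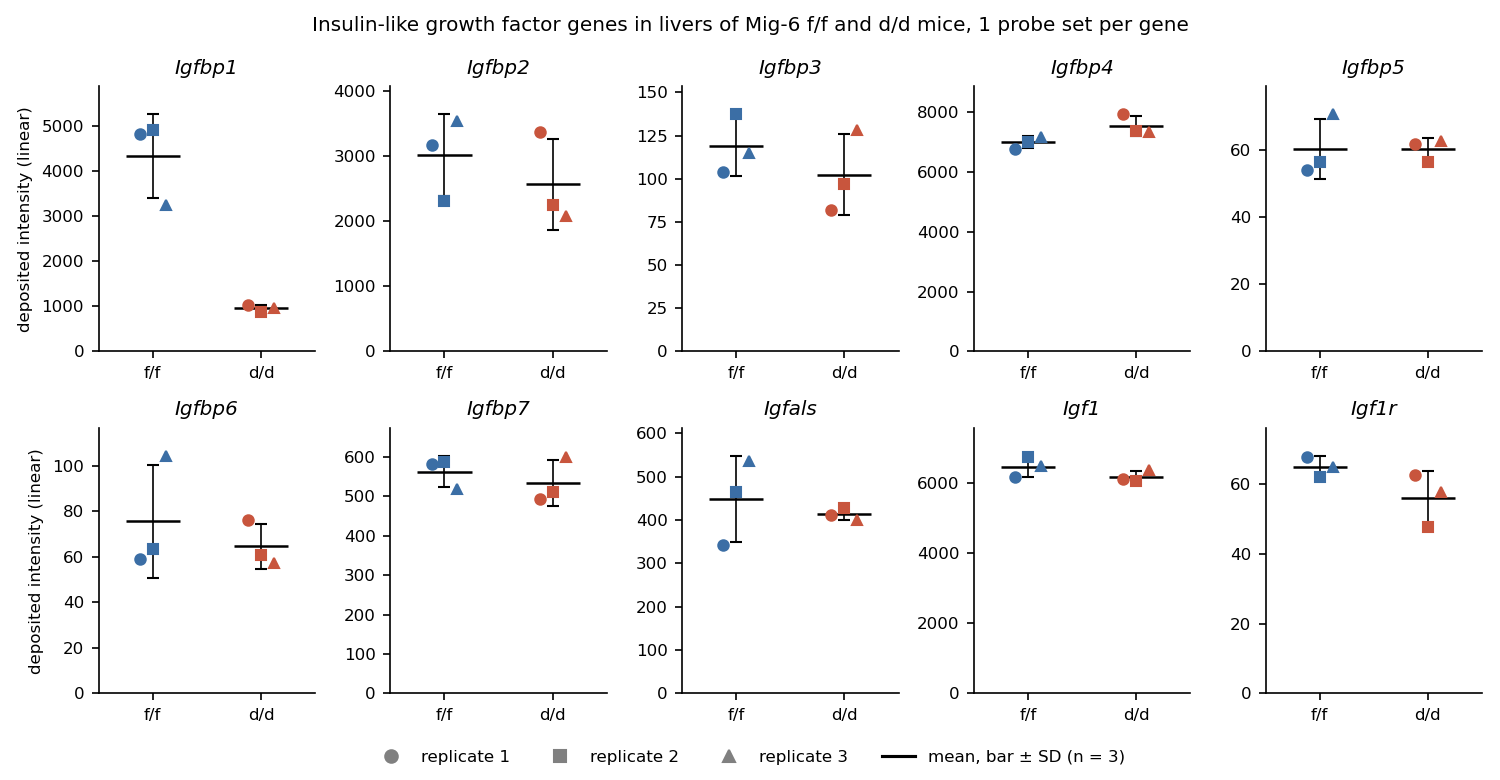
Deposited intensity (linear, each panel with its own axis from 0) of the 10 genes on the 3 f/f and 3 d/d arrays, 1 probe set per gene. Points are arrays, lines are means and bars are the SD. Igfbp1 reads 882 to 1019 in d/d against 3245 to 4893 in f/f, Igfbp4 is separated by a narrow margin, and the groups overlap for the other 8 genes.

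Igfbp2, the binding protein that like Igfbp1 is secreted by hepatocytes and carries an RGD integrin-binding sequence, read 3173, 2314 and 3540 in f/f and 3365, 2241 and 2083 in d/d livers. High and low arrays occurred in both genotypes, and the groups overlapped. The log2 difference was -0.20 ± 0.22 (95% interval -0.71 to 0.32), and it had the opposite sign when arrays were weighted by quality (0.012).

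Igfbp4, a binding protein that inhibits IGF action and is cleaved by the protease PAPP-A, was read by 6 probe sets that did not all have the same sign. The brightest, used for the gene, read 6787, 7011 and 7187 in f/f and 7930, 7371 and 7328 in d/d livers. All d/d arrays were above all f/f arrays, by a margin that was small beside the level, with a log2 difference of 0.17 ± 0.10 (95% interval -0.060 to 0.40). Another 3 probe sets were also separated on the normalized scale, at 0.13, 0.12 and 0.12. Their identifiers end in _s_at or _x_at, which marks probes that can bind more than 1 transcript, and the _s_at probe set overlapped as deposited. The remaining 2 had -0.0042 and -0.13, with overlapping groups. The latter read 1187, 1388 and 1336 in f/f and 1093, 1233 and 1200 in d/d livers. All 6 intervals include 0, and the 6 probe sets measure the same RNA samples. Of all single-symbol probe sets, 13.1% had groups that did not overlap on the normalized scale and 12.6% as deposited.

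Igfbp3, the main carrier of IGF1 in serum and a product of liver cells other than hepatocytes, read 104, 137 and 115 in f/f and 82.2, 97.1 and 128 in d/d livers. The d/d arrays reached from below the f/f range into it, and the log2 difference was -0.18 ± 0.18 (95% interval -0.59 to 0.23). The other probe set of Igfbp3 had -0.16. Igfbp7, a more distant member that binds IGFs weakly and is made by endothelial and other vascular cells, read 582, 586 and 517 in f/f and 492, 509 and 599 in d/d livers. The highest and the lowest array were both d/d, and the log2 difference was -0.074 ± 0.12 (95% interval -0.34 to 0.19). Its other 2 probe sets had -0.043 and -0.010.

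Igfbp5 and Igfbp6 were dim. Probe sets with a mean intensity under about 53.6 were left out of the gene tests, and Igfbp5 read 53.9, 56.4 and 70.5 in f/f and 61.7, 56.3 and 62.5 in d/d livers, just above this level. Its log2 difference was 0.028 ± 0.11 (95% interval -0.22 to 0.28), and its other probe set, under the filter, had -0.11. Igfbp6, which prefers IGF2 to IGF1, read 59.2, 63.4 and 104 in f/f and 76.0, 60.7 and 57.4 in d/d livers. The highest value was that of f/f replicate 3. The log2 difference was -0.14 ± 0.16 (95% interval -0.51 to 0.23), and 0.021 without that array.

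Igf1, the circulating ligand, had 4 probe sets. The one used for the gene read 6185, 6763 and 6497 in f/f and 6129, 6066 and 6386 in d/d livers, with overlapping groups and a log2 difference of -0.0041 ± 0.098 (95% interval -0.23 to 0.22). The other 3 had -0.24, -0.15 and -0.11, again with overlapping groups. The probe set at -0.24 read 3619, 4274 and 5170 in f/f and 3225, 3938 and 3534 in d/d livers. There f/f replicate 3 was highest, and without it the difference was -0.11. Igfals, the acid-labile subunit, read 342, 465 and 537 in f/f and 412, 428 and 399 in d/d livers. The d/d arrays lay inside the f/f range, and the log2 difference was -0.085 ± 0.16 (95% interval -0.46 to 0.29), or 0.057 without f/f replicate 3.

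Igf1r, the receptor, is known to be scarce in adult hepatocytes. Its probe set for the gene read 67.9, 61.9 and 65.1 in f/f and 62.7, 47.6 and 57.9 in d/d livers, with a log2 difference of -0.15 ± 0.13 (95% interval -0.45 to 0.14). All 5 probe sets had a negative difference, from -0.28 to -0.070, and 3 of them lay under the dim filter. The groups overlapped for all 5 on the normalized scale, and as deposited for all but 1. That probe set read 56.2, 58.9 and 56.5 in f/f and 46.5, 52.8 and 51.1 in d/d livers. As deposited, groups did not overlap for 12.6% of all single-symbol probe sets. At intensities between 38.1 and 83.1 over the 5 probe sets, these arrays give little room to measure a lower level.

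In the fit over 12962 genes, 13 genes passed an adjusted p of 0.05 in limma after the Benjamini-Hochberg correction. As lower in d/d passed 7 genes, or 0.0540%, and as higher 6, or 0.0463%. Igfbp1 was 1 of the 7. Of the other 9 genes of the axis 0 passed, and 0 had an unadjusted p under 0.05, which 7.95% of all genes had. Since the contrast had been used to pick Igfbp1, nothing is read from this count. The log2 differences of the other 9 ran from -0.20 to 0.17, with a median of -0.085 where that of all genes was -0.014. Their 95% intervals reached from -0.71 to 0.40 at most. Differences within these intervals could not be told from 0 with 3 arrays a group. Counting Igfbp1, 8 of the 10 genes had a negative difference, as did 53.3% of all genes, and 21 of the 26 probe sets, where the share over all probe sets was 52.2%. In the fit of all 34945 probe sets, 1 of the 26 passed, against 0.0744% of all. Of the other 25, 0 had an unadjusted p under 0.05 in limma, against 6.81% of all.

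**Figure D2:**
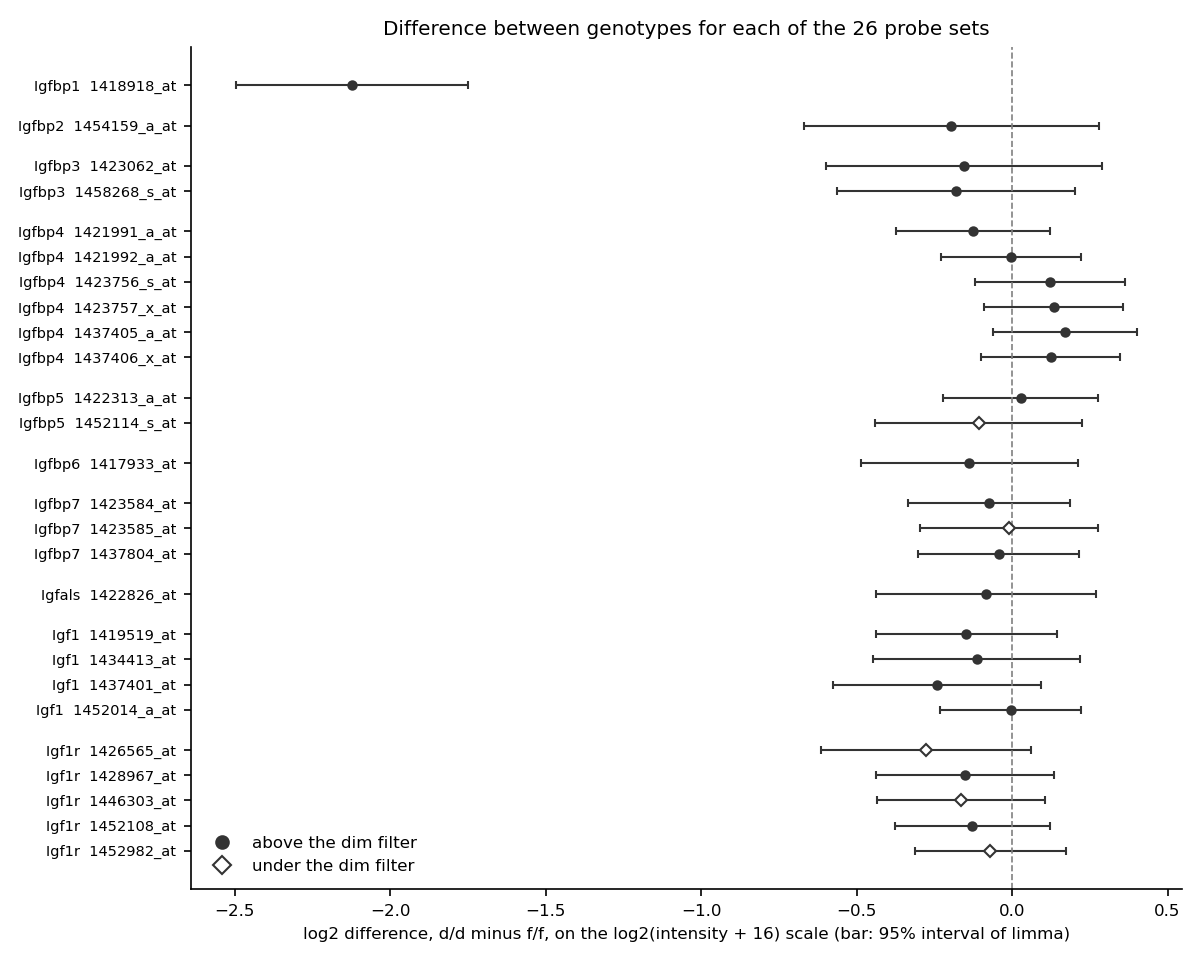
Difference of d/d from f/f, in log2(intensity + 16), for all 26 probe sets, with 95% intervals of limma. Igfbp1 stands at -2.12, and the other 25 probe sets lie between -0.28 and 0.17, each with an interval that includes 0.

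The genes around this axis were taken from 7 lists of ligands, receptors, proteases, signalling proteins and regulators, of whose 81 distinct genes 72 were tested. In limma 0 passed as higher and 1 passed as lower, and 11 had an unadjusted p under 0.05. The exception was G6pc, which encodes the enzyme that releases free glucose in gluconeogenesis. It read 3315, 3758 and 3567 in f/f and 1400, 1266 and 1767 in d/d livers. The groups were far apart, and G6pc was lower in d/d by -1.24 ± 0.14 on the log2 scale (adjusted p = 0.0259, limma and Benjamini-Hochberg). It no longer passed when f/f replicate 1 or 2 was left out (limma adjusted p = 0.0905 and 0.106), nor when d/d replicate 1 or 2 was (limma adjusted p = 0.214 and 0.178), at differences between -1.28 and -1.13. G6pc belongs to the list of insulin-suppressed and fasting-induced genes, of which 15 were tested, 1 fell and 14 did not pass. The median of that list was -0.21, with 11 negative differences and 6 unadjusted p under 0.05 in limma, where 53.3% of all genes were negative and 7.95% had such a p. Besides G6pc and Klf15, such a p was held by Tat (-0.39 ± 0.15), Cpt1a (-0.34 ± 0.11), Trib1 (-0.33 ± 0.11) and Irs2 (-0.28 ± 0.10). All of these but Klf15 were lower in d/d without overlap, as were 6.78% of all genes. The genes of this list other than G6pc and Irs2 were chosen for mention after their values were seen. Klf15, a transcription factor of gluconeogenesis, read 1204, 1218 and 981 in f/f and 1529, 1430 and 1574 in d/d livers, and its log2 difference of 0.44 ± 0.12 was of the opposite sign without passing. Pck1, the gene of the gluconeogenic enzyme phosphoenolpyruvate carboxykinase, had -0.042 ± 0.10. It read 10208, 10086 and 9825 in f/f and 9343, 8882 and 9398 in d/d livers. These groups did not overlap as deposited, as for 12.6% of all single-symbol probe sets, but did once normalized.

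Among ligands and receptors outside the axis genes, 0 of 4 passed. Before adjustment 1 had p under 0.05 (limma), against 7.95% of all genes. That was Insr, the insulin receptor, which read 346, 406 and 327 in f/f and 452, 447 and 447 in d/d livers. All d/d arrays were above all f/f arrays, at a log2 difference of 0.32 ± 0.11, which was 0.062 with the mean of all probe sets of Insr. The arrays of Igf2r, the clearance receptor of IGF2, did not overlap either, at 0.20 ± 0.13. Groups that did not overlap were found for 14.9% of all genes. Igf2, a fetal ligand that is silent in adult mouse liver, had -0.014 ± 0.15, and Insrr, the insulin receptor-related receptor, -0.074 ± 0.12, both at dim levels.

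Of the 16 receptor adaptors and downstream kinases tested, 0 passed, with a list median of 0.054. In limma 2 of them had an unadjusted p under 0.05, against 7.95% of all genes. These were the main insulin receptor substrates of liver, which had opposite signs. Irs1 read 249, 222 and 174 in f/f and 317, 285 and 285 in d/d livers, a log2 difference of 0.46 ± 0.16. Irs2, which insulin suppresses, read 59.1, 60.7 and 73.8 in f/f and 48.2, 56.3 and 44.4 in d/d livers, a difference of -0.28 ± 0.10. The groups did not overlap for either gene, as for 14.9% of all genes, and Irs2 lay near the dim filter. Pik3cb, a catalytic subunit of phosphoinositide 3-kinase, had -0.14 ± 0.10. Its groups did not overlap either, nor on the normalized scale did those of Tsc1, at 0.10 ± 0.10.

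The growth hormone receptor axis, which drives Igf1 and Igfals, had 0 of 6 genes past the threshold and 0 with an unadjusted p under 0.05 in limma, with a median of -0.0053. Ghr, the receptor, read 2900, 2970 and 2813 in f/f and 2788, 3228 and 3204 in d/d livers, a log2 difference of 0.13 ± 0.11 (95% interval -0.12 to 0.37). Stat5b, the transcription factor that it activates, had 0.019 ± 0.10, and Stat5a -0.068 ± 0.11. The feedback inhibitors Socs2 and Cish had -0.030 ± 0.32 and 0.14 ± 0.17. Socs2 was uneven within both genotypes, reading 102, 204 and 110 in f/f and 108, 203 and 88.1 in d/d livers.

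Of 8 other secreted proteins with an IGFBP domain, 0 passed, and before adjustment 0 had p under 0.05 (limma). The connective tissue growth factor gene Ccn2 had 0.29 ± 0.13, and the proteases Htra3 and Htra1 0.26 ± 0.14 and -0.23 ± 0.12. With the mean of all probe sets these proteases had 0.034 and 0.012. Of 9 proteases of IGF binding proteins and stanniocalcins, which inhibit such proteases, 0 passed, and before adjustment 0 had p under 0.05 (limma). Mmp3 had -0.17 ± 0.13, Adam9 0.21 ± 0.20 and Pappa, the gene of PAPP-A, 0.13 ± 0.15.

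Of 16 transcription factors known to act on the Igfbp1 promoter, 0 passed, and before adjustment 3 had p under 0.05 (limma). Such a p was held by 7.95% of all genes. The list median was 0.10, with 11 positive differences, where 53.3% of all genes were negative. Foxa3 read 196, 255 and 206 in f/f and 323, 269 and 303 in d/d livers, a log2 difference of 0.43 ± 0.14. Nr3c1, the glucocorticoid receptor, had 0.29 ± 0.10, and Foxa1, which like Foxa3 is a liver pioneer factor, 0.37 ± 0.16. The list also had 5 negative differences, down to -0.26. The arrays read the RNA of these factors and not their activity, and their part in the level of Igfbp1 was not tested. Foxo1 itself read 363, 362 and 412 in f/f and 377, 459 and 353 in d/d livers, with overlapping groups and a log2 difference of 0.055 ± 0.13 (95% interval -0.24 to 0.35).

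**Figure D3:**
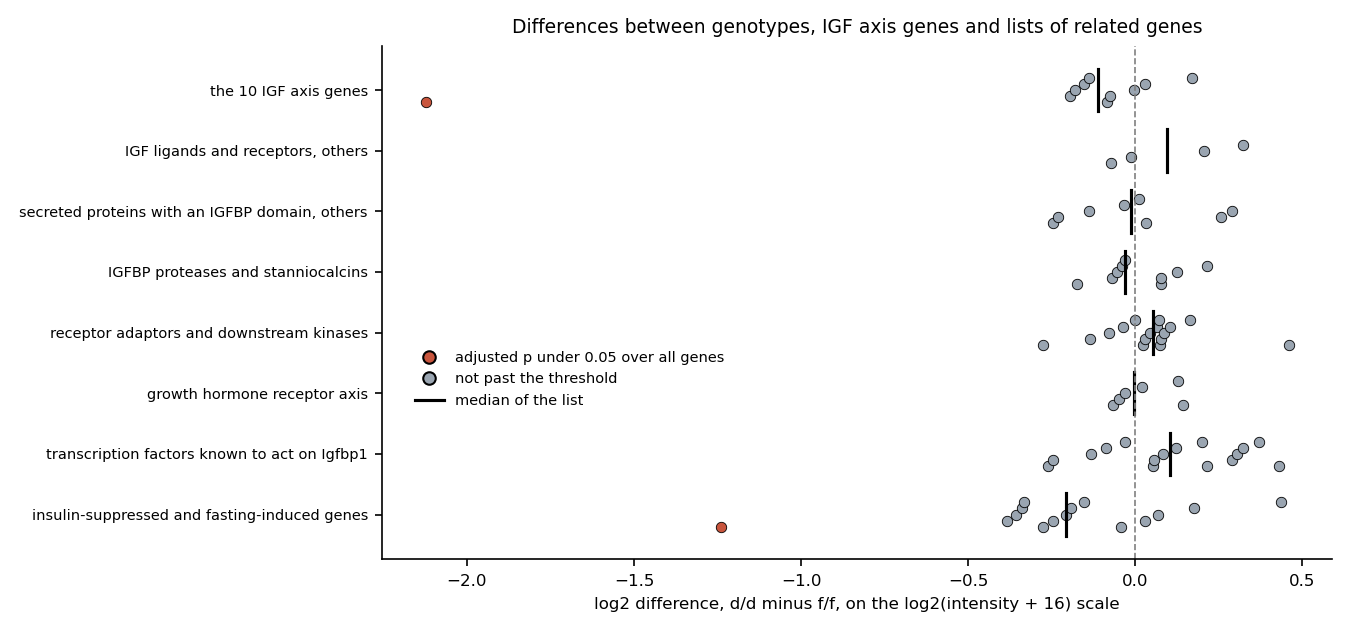
Log2 differences (d/d minus f/f) of the 10 IGF axis genes and of the tested genes of 7 related lists, with each list's median as a line. Points in red passed an adjusted p of 0.05 over all genes, which only Igfbp1 and G6pc did, and the remaining points lie between -0.39 and 0.46.

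The 5 genes whose 6 values followed Igfbp1 most closely were Cyp8b1, the sterol 12-hydroxylase (Pearson r = 0.996), Mettl7b, a lipid droplet protein (0.991), Zfp36l1, an mRNA decay factor (0.989), Paqr9, a membrane protein of the progestin and adiponectin receptor family (0.988), and Idh3a, a subunit of mitochondrial isocitrate dehydrogenase (0.987). The 6 arrays fall into 2 clusters by genotype for these genes, so r serves to rank them and describes no relation within a genotype. Igfbp1 and all 5 genes had their lowest deposited f/f reading on replicate 3, so that array also enters the ranking. Cyp8b1 passed, at -1.02 ± 0.11 (adjusted p = 0.0245, limma and Benjamini-Hochberg), but did not pass without any 1 of the arrays other than f/f replicate 3 (adjusted p from 0.0884 to 0.204, limma). The other 4 did not pass, at -0.25 ± 0.095 for Mettl7b, -0.57 ± 0.11 for Zfp36l1, -0.85 ± 0.14 for Paqr9 and -0.41 ± 0.10 for Idh3a. Without f/f replicate 3, Zfp36l1 and Paqr9 passed (limma adjusted p = 0.0308 and 0.00405). Among the axis genes, r with Igfbp1 ran from -0.85 for Igfbp4 to 0.63 for Igf1r.

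Markers of liver cell types were summed per array, because the members of this family are made by different cells. The 8 hepatocyte markers summed to 164965 to 168643 in f/f and 161364 to 164609 in d/d livers, 0 of 8 passed, and before adjustment 1 had p under 0.05 (limma). These sums did not overlap as deposited but did once normalized. Alb was the brightest probe set on every array, so quantile normalization gave it a difference of 0 by construction. The 10 markers of stellate cells and fibroblasts summed to 3004 to 3363 in f/f and 2432 to 2944 in d/d livers, and overlapped once normalized. Lrat, their defining marker, was dim at 53.8 to 77.6, and 0 of 10 passed in limma with 1 unadjusted p under 0.05. That was Dcn, the brightest of this list, with means of 2058 in f/f and 1679 in d/d livers. Of the 10 differences 5 were positive and 5 negative, with a median of -0.016, so the lower sum was not shared across the list. Sinusoidal endothelial markers summed to 1753 to 2253 and 1937 to 2267, with Stab2 at 264 to 374 and 0 of 10 passing, and 0 unadjusted p under 0.05 in limma. Kupffer cell markers summed to 3110 to 4368 and 2672 to 3411, with Clec4f at 272 to 425. In limma 0 of the 10 Kupffer cell markers tested passed, and before adjustment 2 had p under 0.05, with 9 of 10 negative. Over all genes, 7.95% had such a p and 53.3% were negative. Cholangiocyte markers were mostly under the dim filter, with Krt19 at 34.8 to 90.5, 4 of 6 summed at 178 to 255 and 207 to 244, and 1 tested, which did not pass in limma (0 unadjusted p under 0.05). The part of these cell types in the differences of Igfbp3, Igfbp5, Igfbp6 and Igfbp7 was not tested.

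**Figure D4:**
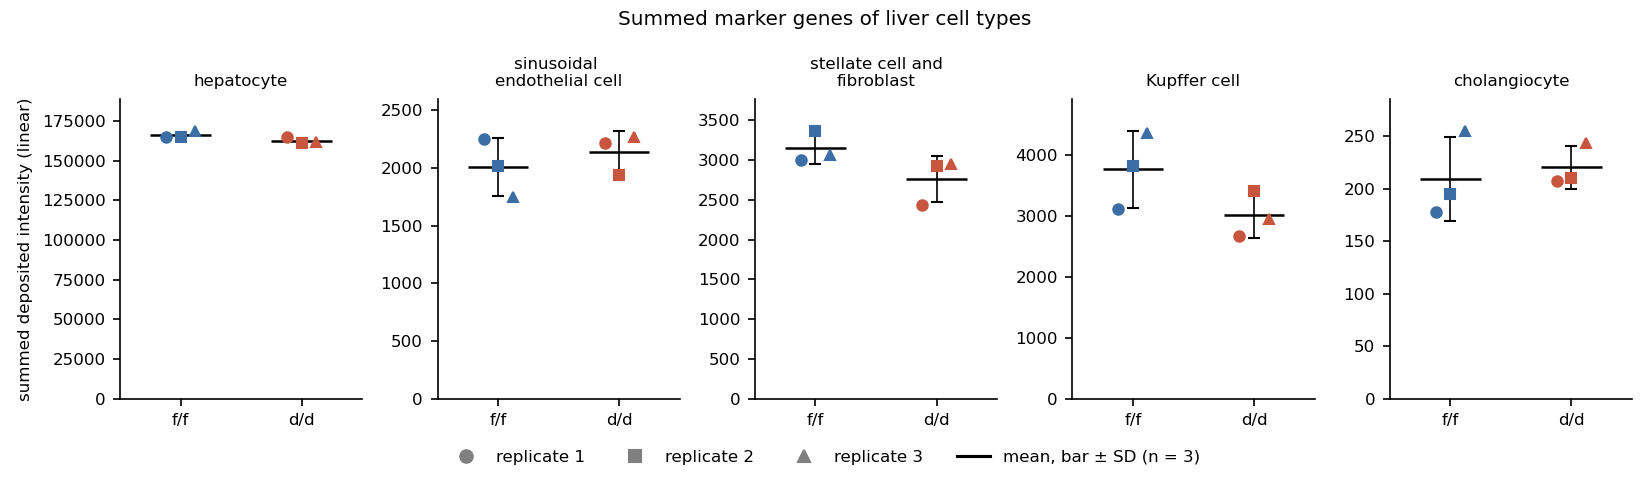
Summed deposited intensity (linear axes from 0) of marker genes of 5 liver cell types on the 6 arrays, with group means as lines and the SD as bars. Hepatocyte sums lie between 161364 and 168643, and the hepatocyte, stellate cell and Kupffer cell means are lower in d/d. The stellate cell sums include the bright gene Dcn, with means of 2058 in f/f and 1679 in d/d.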

How the data were processed

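Biotin-labelled targets made from total liver RNA were read on Affymetrix mouse arrays, per the labels' protocols. The authors deposited linear intensities for 45101 probe sets on 6 arrays, and the sources used here do not give how these were summarized, background-corrected and scaled. The number of arrays limits the precision. Gene symbols come from GEO's platform annotation, which gives 34945 probe sets a single symbol. Of these, 34741 matched the reference gene table by Entrez number.

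Array medians and quartiles of log2(intensity + 16) differed by up to 0.185, above a tolerance of 0.1, so arrays were quantile normalized. The 40% dimmest single-symbol probe sets were left out, and the brightest probe set stood for each gene, which left 12962 genes and all 10 members. Genotypes were compared with limma 3.58.1 in R 4.3.3, without covariates, with Benjamini-Hochberg adjustment and a threshold of 0.05. All single-symbol probe sets were also fitted without the filter. Differences understate the change of dim genes. The test was checked on simulated data. The 10 members and the gene lists were chosen with earlier results of these data known. Named are the members, Errfi1, 10 key genes (Ghr, Igf2, Igf2r, Insr, Irs1, Irs2, Stat5b, Socs2, Foxo1 and G6pc), per list the genes past the threshold or else the 3 with the lowest p, the 5 genes most like Igfbp1 and a defining marker per cell type.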

Additional observations from a re-analysis of the deposited data

How the results depend on the processing

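Igfbp1 kept its direction under all 17 alternatives, between -2.31 and -2.02, and passed in each except with the replicate number as a block. Its limma adjusted p was 0.0527 under the block, and 0.0492 and 0.0480 without d/d replicate 1 or 2, all near the threshold. With this replicate block 0 of the 10 members, 0 genes of the pathway lists and 1 gene in all passed. Deviations of same-numbered arrays from their group means correlated at -0.0016, -0.15 and -0.47. No f/f array correlated best with the d/d array of its own number. With 3 arrays a group, and f/f replicate 3 unlike the others, these values cannot settle whether the numbers pair the arrays. G6pc did not pass under the block either (limma adjusted p = 0.138). The other 9 members passed under no alternative. The count of all genes was 13, and it was 20 with the mean of all probe sets, 21 with trend and robust variances and 224 with array weights. Leaving out 1 array gave between 4 genes (d/d replicate 1 out) and 88 (f/f replicate 3 out). That of members stayed at 1, and that of pathway genes ran from 0 to 1. The median over the 26 probe sets of the members was -0.11. With 1 array left out it lay between -0.13 (f/f replicate 1 out) and -0.052 (f/f replicate 2 out), and with the values as deposited it was -0.14. The 40% filter taken over all probe sets, an alternative chosen after seeing the data, gave 13 genes.

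Some differences near 0 changed sign, and the cause was not tested. Array weights gave 0.012 for Igfbp2, 0.024 for Igfbp6, 0.030 for Igfals, 0.13 for Igf2 and -0.018 for Stat5b. The mean of all probe sets gave -0.040 for Igfbp5, 0.012 for Htra1, 0.054 for Igf2, 0.040 for Socs2 and -0.0032 for Stat5b. Without a change of sign, it gave 0.070 for Igfbp4, 0.066 for Pappa and 0.23 for Ghr. With 1 array left out and the probe set per gene chosen anew, Igfbp3 ran from -0.35 to 0.024, Igfbp5 from -0.025 to 0.086, Igfbp6 from -0.23 to 0.021, Igfals from -0.26 to 0.057 and Igf1 from -0.033 to 0.017. In the same fits Adam9 ran from -0.035 to 0.34, Cish from -0.054 to 0.28, Foxo1 from -0.051 to 0.14, Igf2 from -0.11 to 0.097, Socs2 from -0.33 to 0.27 and Stat5b from -0.031 to 0.072.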

Other observations

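The genes on either side of the Igfbp1 and Igfbp3 pair on chromosome 11 were looked at after the values of the members were seen. Adcy1, an adenylyl cyclase, read 110, 116 and 161 in f/f and 108, 101 and 109 in d/d livers, a log2 difference of -0.22 ± 0.13 (95% interval of limma -0.51 to 0.065). Tns3, a focal adhesion protein, read 295, 281 and 288 in f/f and 346, 364 and 341 in d/d livers. Its d/d arrays were all higher, at 0.27 ± 0.10 (95% interval of limma 0.045 to 0.50, not adjusted for the number of probe sets). Its other probe set had -0.15 ± 0.17 with overlapping groups. On the normalized scale, groups did not overlap for 13.1% of all single-symbol probe sets. Igf2bp3, which binds the mRNA of Igf2 and is no growth factor binding protein, read 189, 247 and 302 in f/f and 223, 213 and 201 in d/d livers, with -0.18 ± 0.15 and overlapping groups. Its other 5 probe sets had differences from -0.17 to 0.19, and for the highest of these, which lay under the dim filter, the d/d arrays were all higher.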
